A study of Homo sapiens with 4 samples.

Results

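The genes described here are 10 members of the cadherin and desmosome group, namely the classical cadherins CDH1, CDH2 and CDH3, the desmosomal cadherins DSG2, DSG3, DSC2 and DSC3, and the plaque proteins DSP, PKP1 and JUP. Every array probe designed on a RefSeq transcript of 1 of these genes was taken, which gave 14 probes among the 50590 probes used and 10 genes among the 20501 genes with a symbol. MCF-10A, a line of mammary epithelial cells that is immortal but not tumorigenic, was plated, given 10 µM of a stapled peptide 48 h later, and harvested for RNA 24 h or 48 h after that. In the labels the peptides are called stapled-peptide (SP) and non-specific stapled-peptide (NSP), the latter with control as its treatment. The study used a pair of stapled peptides derived from BIG3, stERAP-2 and stERAP-5, and which label stands for which cannot be read from the labels. All cells were grown in MEBM with bovine pituitary extract, hydrocortisone, EGF, insulin, antibiotics and cholera toxin, and every array was of peptide-treated cells. Each peptide and time had 1 single-colour Agilent array, so the peptides had no replicate array within a time. No test was run, a fit over both times included, and differences are given as measured sizes.

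Cadherins are transmembrane proteins that bind cadherins of the neighbouring cell through their outer domains in the presence of calcium. In adherens junctions the classical cadherins are tied through catenins to actin, whereas in desmosomes the desmogleins and desmocollins are tied through plakoglobin and plakophilins to desmoplakin, which holds keratin filaments. In breast epithelium E-cadherin joins the cells of both layers and P-cadherin is a feature of the basal layer, while N-cadherin is better known from neural and mesenchymal cells. DSG2 and DSC2 occur in most tissues with desmosomes, and DSG3, DSC3 and PKP1 are typical of basal and stratified epithelia.

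Signals are given as log2 values after quantile normalization over the 4 arrays, so that a step of 1 is a 2-fold change, and each difference is the NSP value minus the SP value unless times are compared. A probe was counted as measured on an array when the scanner software marked it as well above background, and the lowest measured probe of an array lay between 3.57 and 3.94. Across 37761 probes measured on at least 1 array, the NSP array at 48 h correlated with the others at a Pearson r of at most 0.818, against at least 0.978 among those others. Markers of basal mammary epithelium, the usual profile of MCF-10A, moved with this array. The other 3 arrays measured 9 of 9 such genes, with a summed signal of 117841 to 118803, and this array measured 8 of 9, with a summed signal of 468. KRT5, a keratin of basal cells, had 14.65, 14.54 and 14.59 on the other arrays and 5.02 on this array, and KRT6A was not measured there, so that most of the basal profile was near the detection limit on an array labelled MCF-10A. Of 9 markers of embryonic kidney lines or neural cells, 2 to 3 were measured on the other 3 arrays with a summed signal of 230.3 to 257.3, and 6 on this array with 24610. There LIN28B had 12.86 and NEFM 11.93 without being measured on any other array. PHOX2A was not measured there, nor were the brightest probes of PAX2 and L1CAM, although another probe of each was, at 7.78 for PAX2 and 3.99 for L1CAM. The part of these marker genes in the differences described below was not tested. In RNA from whole cultures, fewer cells of a type and less RNA per cell cannot be told apart. With 1 array per peptide and time, an effect of the peptide and a difference in the sample itself cannot be told apart either. Whether the RNA on this array came from MCF-10A cells was not tested.

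Among the classical cadherins, P-cadherin was far lower on 1 array, N-cadherin was bright on all arrays, and E-cadherin was close to the detection limit on all arrays. CDH1, which encodes E-cadherin, the main cadherin of epithelial adherens junctions, had a log2 signal of 4.92 with SP and 5.25 with NSP at 24 h, and 5.44 and 5.13 at 48 h. These values lay only 0.97, 1.47, 1.56 and 1.57 above the lowest measured probe of the same arrays. CDH1 was measured on every array but with little signal, although E-cadherin is usual in mammary epithelial cells, and a single probe stood for the gene. This probe was spotted 10 times on each array, which gives an error within the array: the SD of its log2 spot signals was 0.22 and 0.15 at 24 h (n = 9 unmarked spots each) and 0.16 (n = 9) and 0.29 (n = 10) at 48 h. The difference between the peptides was 0.34 at 24 h and −0.31 at 48 h. The ranges of the spots overlapped between the arrays compared, from 4.66 to 5.32 against 4.96 to 5.47 at 24 h and from 5.23 to 5.67 against 4.57 to 5.53 at 48 h. CTNNB1, which encodes β-catenin, the partner of the cadherin tail, was chosen after its values were seen because it also has 10 spots. It had mean signals of 11.79, 11.85, 11.76 and 11.70 with SDs of 0.055, 0.058, 0.055 and 0.034 (n = 10 spots), so the dim CDH1 probe varied more between its own spots than this bright one. Spots of 1 array share 1 RNA sample and are not replicates of a condition.

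**Figure D1:**
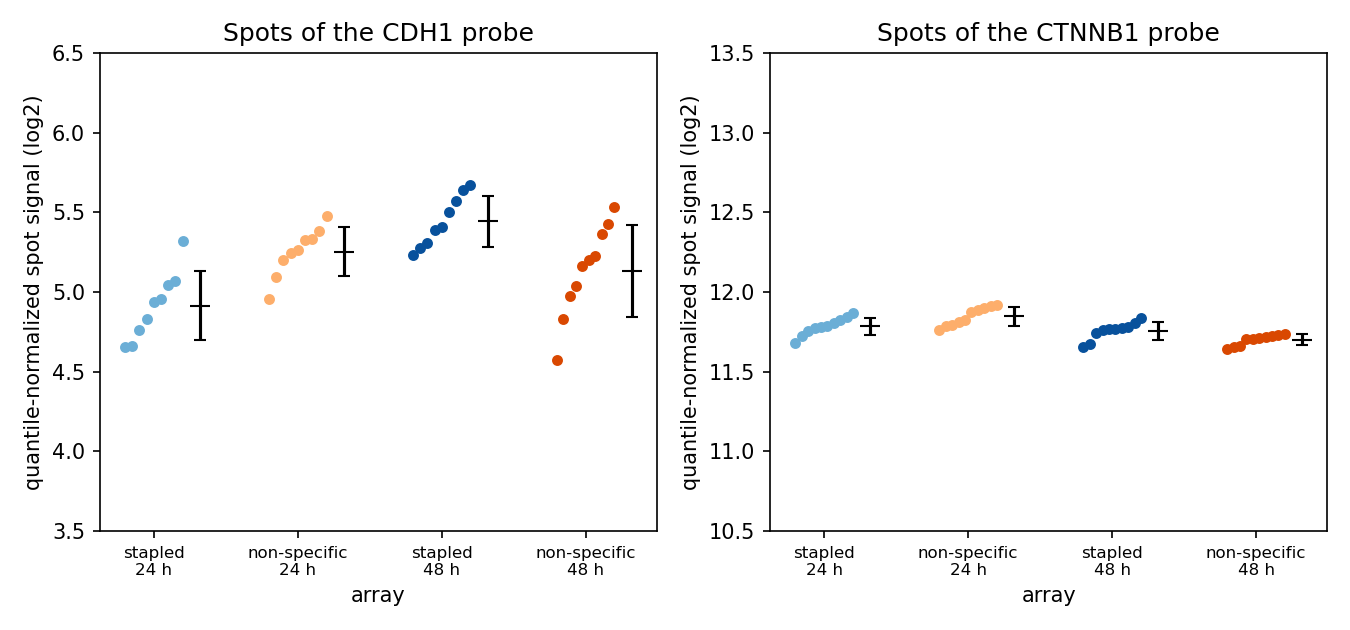
Quantile-normalized log2 signals of the single spots (points) of the CDH1 and CTNNB1 probes on the 4 arrays, with the mean ± SD over spots in black, on axes of equal height. The CDH1 spots spread from 4.57 to 5.67 and overlap between arrays, while the CTNNB1 means lie between 11.70 and 11.85.

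CDH2, which encodes N-cadherin, had 10.94 and 10.87 at 24 h and 11.05 and 11.27 at 48 h at its brighter probe, with SP first. Its other probe had 9.01, 9.11, 9.0003 and 9.61 in the same order of arrays. The highest value at both probes was that of the NSP array at 48 h, and the difference between the peptides at 48 h was 0.23 at the brighter and 0.61 at the other probe. Over the other 3 arrays the probes had ranges of 0.18 and 0.11.

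CDH3, which encodes P-cadherin, had 8.58 and 8.71 at 24 h and 8.69 with SP at 48 h, against 4.76 with NSP at 48 h. The last array was the low one, while the other 3 lay within 0.12 of each other. The difference between the peptides at 48 h was −3.94, a signal 15.3-fold lower, and the probe was still measured on the low array, 1.19 above its lowest measured probe. CDH3 and CDH1 are next to each other among the protein-coding genes of chromosome 16, and their differences at 48 h were −3.94 and −0.31. With 1 array each, the difference between these values was not tested.

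Among the desmosomal cadherins, DSG3 was lower and DSC2 higher with NSP at 48 h, whereas DSG2 and DSC3 differed little. DSG3, a desmoglein of the basal layers of stratified epithelia and the antigen of pemphigus vulgaris, had 6.76 and 6.91 at 24 h and 6.89 with SP at 48 h. It was not measured with NSP at 48 h, where its signal of 2.63 lay under the limit of 3.57. The difference of −3.33 at 48 h is therefore a bound, at least 10.0-fold lower. With the normexp background correction it was −1.25, which does not pass 4-fold. DSG2, a widespread desmoglein, had 7.996 and 7.88 at 24 h and 7.83 and 8.10 at 48 h, and its difference at 48 h was 0.28. The 4 values of DSG2 thus lay close together on arrays that parted widely for DSG3.

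DSG3 and DSG2 are neighbours on chromosome 18, in a cluster that runs from DSC3 over DSC2, DSC1, DSG1 and DSG4 to DSG3 and DSG2. The 250 bases before their annotated starts are shown because these adjacent genes of a family had different values at 48 h, the first lower and the second not. They were taken from RefSeq on GRCh38.p14, where the DSG3 window is chr18:31447491-31447740 and the DSG2 window chr18:31497927-31498176, both on the plus strand. Capitals mark the E-box CAGGTG on either strand (CACCTG on the strand shown), the type of site bound by the SNAI and ZEB repressors and other factors.
DSG3: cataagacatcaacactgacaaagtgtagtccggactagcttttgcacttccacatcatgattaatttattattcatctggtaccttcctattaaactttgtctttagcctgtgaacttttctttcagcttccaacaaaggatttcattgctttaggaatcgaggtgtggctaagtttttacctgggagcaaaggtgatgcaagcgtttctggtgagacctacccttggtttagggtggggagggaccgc
DSG2: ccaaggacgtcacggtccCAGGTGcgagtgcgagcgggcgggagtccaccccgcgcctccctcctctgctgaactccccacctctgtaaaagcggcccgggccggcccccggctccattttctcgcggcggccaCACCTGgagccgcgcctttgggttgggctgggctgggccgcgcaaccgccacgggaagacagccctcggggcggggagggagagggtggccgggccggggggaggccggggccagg
The DSG3 window had a GC content of 42.8% and the DSG2 window of 75.2%. The DSG2 window held the E-box at positions −232 and −116 from the start and the DSG3 window did not hold these letters. Of all 35116 promoter windows of this length, 17.5% held the E-box. Of the members, 8 have windows, 11 in all, and 4 of these 11 windows held it, 1 each of DSP, DSG2, DSC2 and JUP. The other motifs searched on both strands were TGANTCA of AP-1 factors, AACCNGTT of grainyhead factors and TATAAA, which 6.57%, 1.49% and 10.72% of all windows held. Of the CDH2 windows, 1 held both TGANTCA and TATAAA, and no window of the 8 members held AACCNGTT. CDH1 and CDH3 have no window in the table used. A match of letters describes the sequence, and no binding was measured.

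DSC2, the desmocollin that is paired with DSG2 in many tissues, had 4.51 with SP at 24 h and was not measured on the next arrays, with 3.95 for NSP at 24 h and 4.05 for SP at 48 h. With NSP at 48 h it was measured at 5.83, the highest of the 4 values. The difference at 48 h was at least 1.79, or at least 3.45-fold, and at 24 h it was a bound of −0.56 between values close to the detection limit. The bound at 48 h missed 4-fold but passed it without normalization (2.13), a setting that moved the median of all genes by 0.23. With the normexp background correction it was 0.52, which does not pass 2-fold. DSC3, the desmocollin of basal and stratified epithelia, had 6.87, 6.86, 6.96 and 6.63 at its brighter probe and 6.30, 5.93, 6.08 and 5.82 at its other probe. The probes were designed on different transcripts of the gene, and their differences at 48 h were −0.33 and −0.26. For the brighter probe the sign turned without normalization (0.055). DSC1 and DSG4 were not measured on the 3 arrays other than NSP at 48 h, where DSC1 had 4.59 and DSG4 was again not measured.

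**Figure D2:**
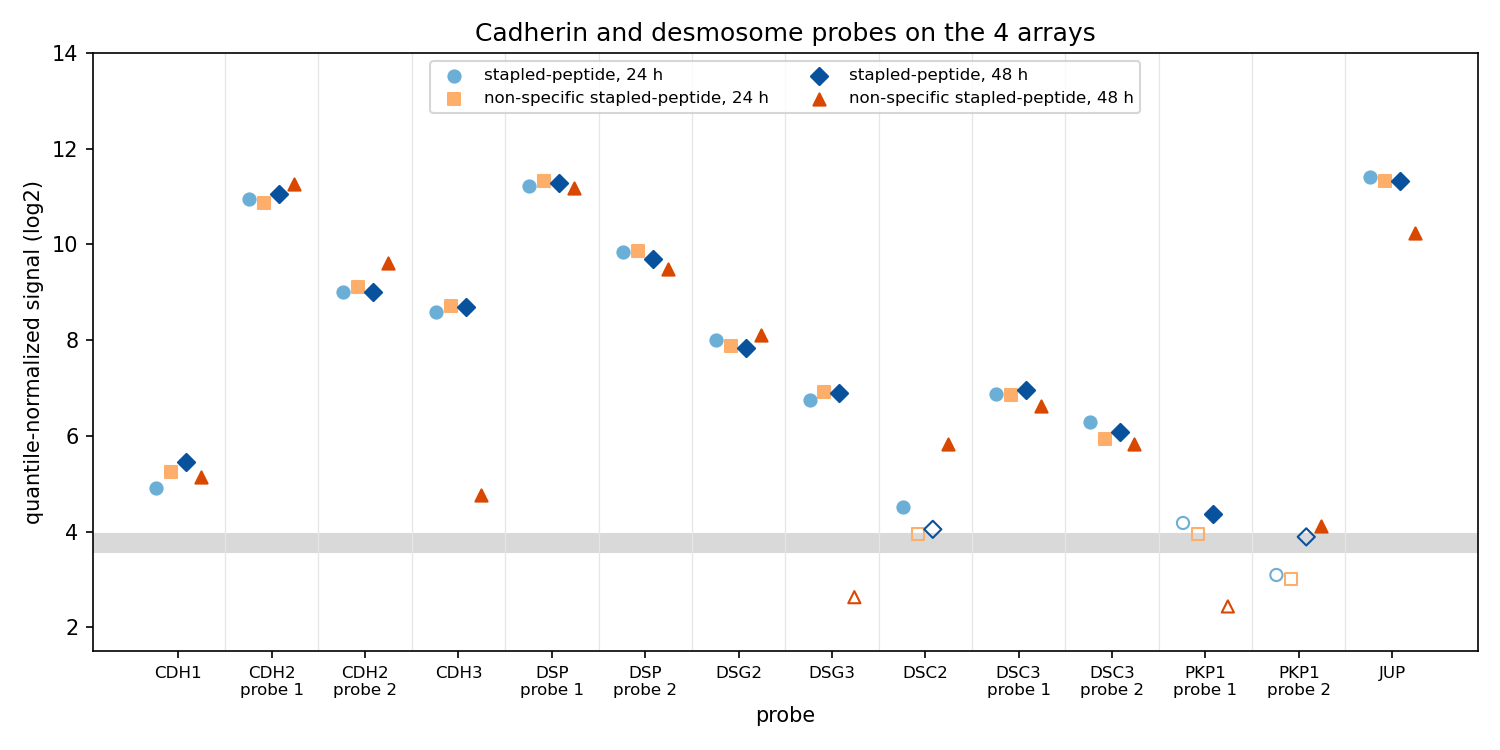
Quantile-normalized log2 signals of the 14 probes of the 10 genes on the 4 arrays, with filled marks for probes well above background and open marks for others, and a grey band from 3.57 to 3.94 for the lowest measured signals of the arrays. The NSP array at 48 h stands apart for CDH3 (4.76) and DSG3 (2.63), and CDH1 lies at 4.92 to 5.44 on all arrays.

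Of the plaque genes, DSP was close between arrays, JUP was lower on 1 array and PKP1 was at the detection limit. DSP, which encodes desmoplakin, the plakin that ties the desmosome to keratin filaments, had 11.23 and 11.32 at 24 h and 11.29 and 11.19 at 48 h. Its other probe had 9.84, 9.87, 9.70 and 9.48 in the same order. The differences between the peptides at 48 h were −0.10 and −0.22, the first of which turned to 0.074 without normalization. JUP, which encodes plakoglobin, the catenin of desmosomes that also occurs in adherens junctions, had 11.41, 11.32 and 11.33 on the first 3 arrays, within 0.09 of each other, and 10.24 with NSP at 48 h. Its difference at 48 h was −1.09, a signal 2.12-fold lower. JUP was thus the 1 plaque gene among the members with a measured difference over 2-fold. PKP1 encodes a plakophilin that strengthens desmosomes in stratified epithelia. Its brighter probe was measured with SP at 48 h alone, at 4.37, and its other probe with NSP at 48 h alone, at 4.12. The bounds at 48 h were −0.81 and 0.23, of opposite sign, so that no direction is given for PKP1.

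Counted at the brightest probe of each gene, 2 of the 10 genes were lower by more than 4-fold with NSP at 48 h, CDH3 and DSG3, where 8.70% of 17112 genes with a difference were. None of the 10 was higher by more than 4-fold, where 8.10% of all genes were. The median difference of the 10 genes was −0.32, against 0.03 for all genes, and it was −0.0097 without normalization. At 2-fold, 3 members (CDH3, DSG3 and JUP) were lower and 1 (DSC2) was higher, where 19.8% and 21.2% of all genes were. With so few genes, these counts are not read as a difference from the shares of all genes. None of the 10 passed 100-fold, where 0.947% of all genes did. The remaining 6 genes included PKP1, known only by a bound, and CDH1, CDH2, DSP, DSG2 and DSC3, whose differences lay between −0.33 and 0.28.

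**Figure D3:**
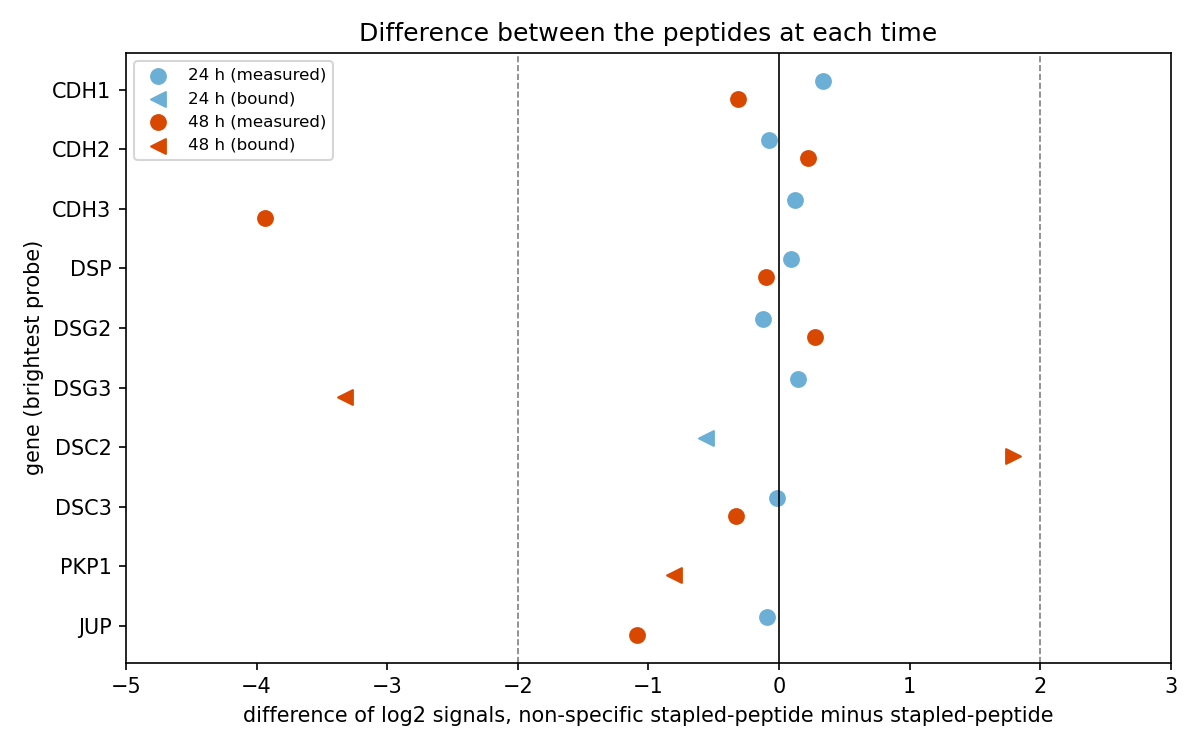
Difference of log2 signals between the peptides for the brightest probe of each gene at 24 h (blue) and 48 h (orange), with arrowheads for bounds, which point to where the true value can lie, and dashed lines at 4-fold. At 48 h CDH3 (−3.94) and DSG3 (−3.33) lie beyond the lines, and at 24 h no gene does.

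At 24 h the peptides were close for these genes. Among 9 genes with a difference, 0 passed 4-fold, where 0.413% of 16228 genes did, and the median was −0.01. The largest size was the bound of −0.56 for DSC2, and the next was the 0.34 of CDH1. CDH3 differed by 0.12 and DSG3 by 0.15, and PKP1 was not measured at its brighter probe on either array. Between 24 h and 48 h with SP, 0 of the 10 genes passed 4-fold, where 0.521% of 16138 genes did, and CDH1 had the largest difference, 0.53. Between the same times with NSP, 2 of 9 genes were lower by more than 4-fold, CDH3 by −3.95 and DSG3 by a bound of −3.34, where 8.47% of 17297 genes were. At 2-fold 4 of the 9 differed, now with JUP and DSC2, where 41.3% of all genes did. This comparison shares the 48 h array with that between the peptides at 48 h, so their values are not independent. Over the comparisons without that array, CDH3 and DSG3 differed by at most 0.15.

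**Figure D4:**
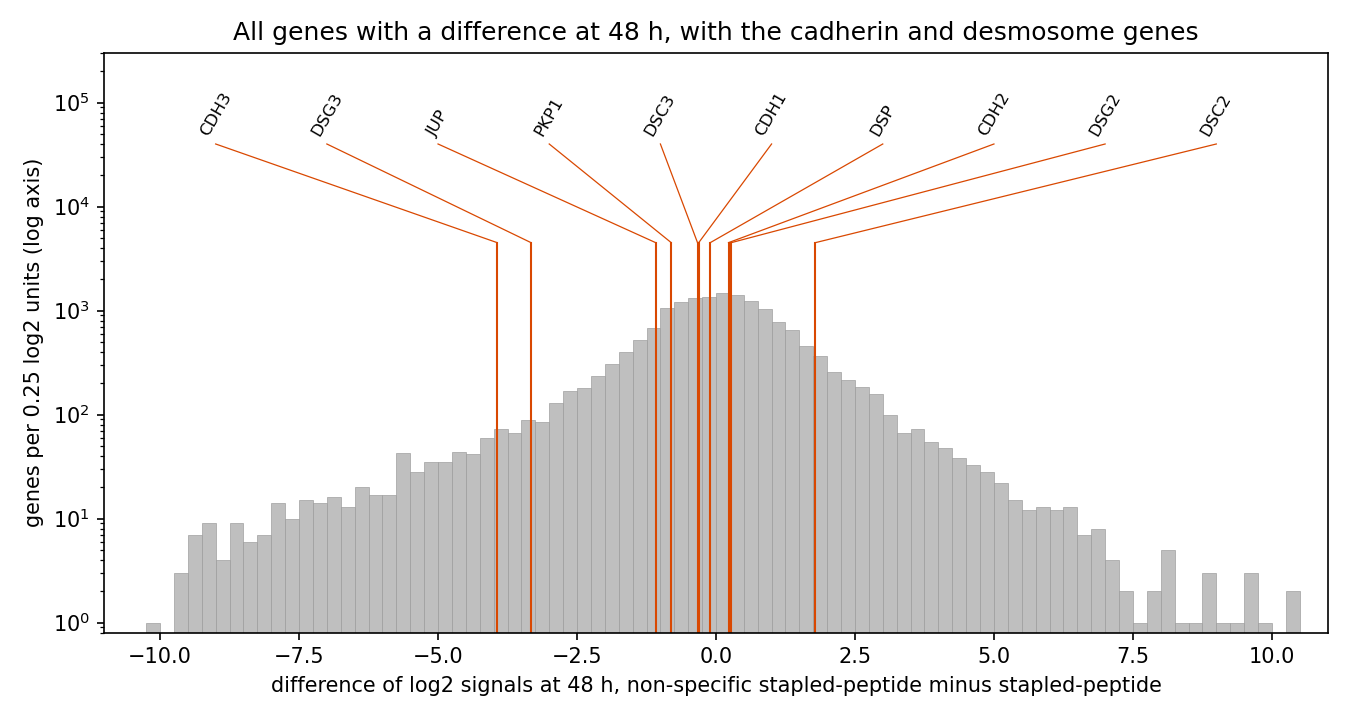
Histogram of the difference of log2 signals at 48 h for 17112 genes at their brightest probe (grey, number of genes on a log axis), with orange lines at the values or bounds of the 10 genes. CDH3 (−3.94) and DSG3 (−3.33) lie in the lower flank, and DSC2 (1.79) in the upper one.

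Other genes of the desmosome included plakophilins that were lower on the same array. Of 8 other desmosome genes, 7 had a difference at 48 h, with a median of −0.47. Of these 7, 2 were lower by more than 4-fold and 0 higher, where 8.70% and 8.10% of all genes were. Few genes stand behind such counts, in this list and in those that follow. PKP3, a plakophilin of most epithelial desmosomes, had 11.89, 11.80 and 11.89 on the first 3 arrays and 4.05 with NSP at 48 h, a difference of −7.84 or 228-fold. PKP2, the plakophilin of simple epithelia and heart muscle, had 11.16, 11.11 and 11.23 and then 7.54, a difference of −3.69. Both probes had been bright and close on the other 3 arrays. The next in size were DSG1, the desmoglein of upper epidermal layers, which was higher by at least 1.21, and PKP4, with 1.06. DSG1 was measured with NSP at both times, at 4.93 and 5.09, and with SP at neither. Its bound at 24 h was already 0.99.

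The plakins, large linkers related to desmoplakin, had a median of −1.80. Of 6 plakins, 3 were lower by more than 4-fold, where 8.70% of all genes were. PPL, which encodes periplakin of the cornified envelope and desmosomes, had 11.65, 11.56 and 11.57 and was not measured with NSP at 48 h, so that its signal was at least 256-fold lower. PLEC, which encodes plectin, the linker of keratin to hemidesmosomes, had 13.73, 13.80 and 13.83 and then 7.43 at its brightest probe, a difference of −6.40, and its other probe, on the same transcript, had −2.70. DST, which encodes dystonin, differed by −2.13 at its brightest probe. EVPL, which encodes envoplakin, had −1.47, and EPPK1, which encodes epiplakin, a bound of 1.22. DSP, the plakin among the members, thus had a difference of −0.10 (0.074 without normalization) on the same arrays.

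Of 15 catenins and other adherens junction genes, 13 had a difference, and the median was −0.06. By more than 4-fold 2 were lower and 0 higher, where 8.70% and 8.10% of all genes were. The lower genes were ADAM10, the protease that cuts E- and N-cadherin at the cell surface, with 8.04, 8.13, 8.21 and 5.46 and a difference of −2.74, and NECTIN4, an adhesion receptor of epithelia, with 8.39, 8.31, 8.43 and 6.14 and a difference of −2.29. CTNNA1, which encodes the α-catenin that joins cadherins to actin, had 12.28, 12.41, 12.25 and 10.54, a difference of −1.71, and −2.13 at its other probe. NECTIN2 had 1.498.

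Of 20 other cadherins, 13 had a difference at 48 h, and the median was −0.16. By more than 4-fold 4 were lower and 2 higher, where 8.70% and 8.10% of all genes were. CDH13, which encodes T-cadherin, held by a lipid anchor instead of a transmembrane part, had 10.17, 10.25 and 10.27 at its brightest probe, which was not measured with NSP at 48 h (a bound of −6.71). CDH11, a cadherin of mesenchymal cells, had 9.12, 9.27 and 9.32 and was not measured there either (a bound of −5.75). CDH4, also called R-cadherin, differed by −3.03 and CDH10 by −2.86. Those higher were CDH12, with 4.44 and 6.97 at 48 h and a difference of 2.53, and CDH26, measured on the last array alone at 6.57, with a bound of 2.68. CDH18 was higher by at least 1.67, and CDH22, with 11.37, 11.19, 11.17 and 10.10, had a difference of −1.06.

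Among 13 genes that regulate cadherin genes, 11 had a difference, and the median was −0.49. By more than 4-fold 2 were lower and 2 higher, where 8.70% and 8.10% of all genes were. The repressors TWIST1 and SNAI2, known for silencing E-cadherin in epithelial-mesenchymal transition, were lower: TWIST1 had 10.98, 10.88, 10.89 and 7.97, a difference of −2.92, and SNAI2 had 7.69, 7.79, 7.83 and 5.16, a difference of −2.67. The grainyhead factors GRHL1 and GRHL2, which act on epithelial junction genes, were higher, GRHL1 by 4.45 with 3.94 and 8.38 at 48 h, and GRHL2 by at least 2.25, as its brightest probe was measured on the last array alone, at 6.14. The other probe of GRHL2, on the same transcript, was not measured on any array, and that of GRHL1 had a bound of 0.54. On the other arrays the brightest probe of GRHL1 lay at the detection limit. CDH1 differed by −0.31 between the same arrays. OVOL2 had a bound of −1.53 and SNAI1 0.88.

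**Figure D5:**
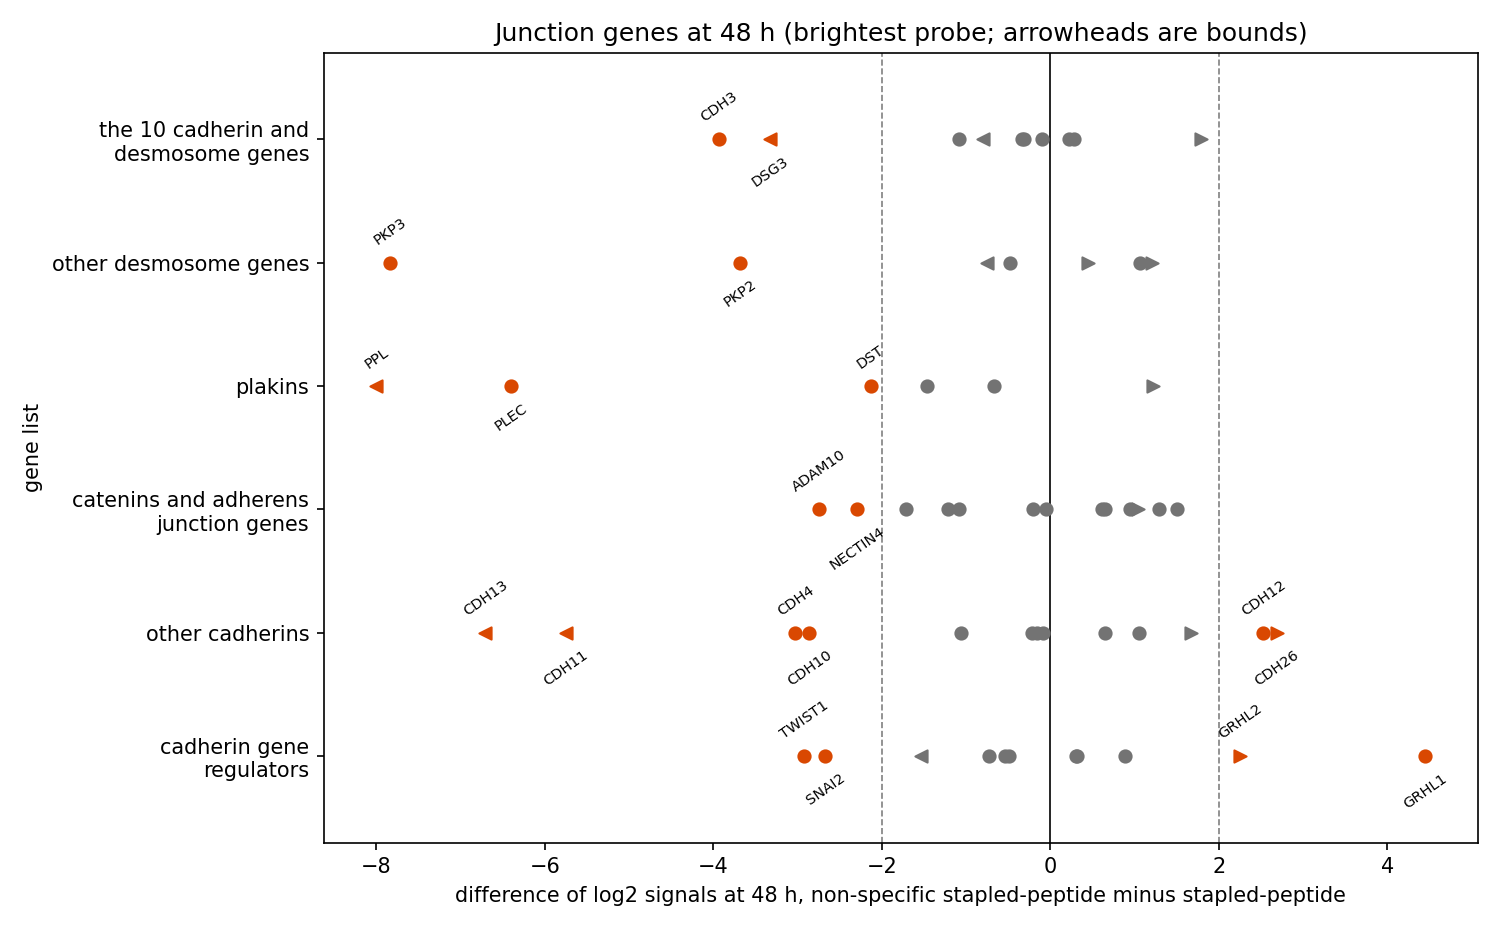
Difference of log2 signals between the peptides at 48 h for the brightest probe of each junction gene, by list, with arrowheads for bounds, dashed lines at 4-fold and names and orange for genes beyond them. PKP3 lies at −7.84 and PPL is at least 256-fold lower. The marks of the 10 cadherin and desmosome genes lie between −3.94 and 1.79, of which those of DSG3, DSC2 and PKP1 are bounds.

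The genes with the most similar pattern were ranked by the Euclidean distance between the 4 log2 values, each centred on its gene's mean, over 17665 other genes measured on at least 1 array. For CDH3 these were KCNMA1 (distance 0.030; 9.03, 9.13, 9.15 and 5.18), IFI27L2 (0.043) and CYB5R2 (0.052), and 275 genes lay within 0.5. For CDH1 they were DDX50 (0.032), ZNF578 (0.069) and FAM238C (0.077), with 3287 genes within 0.5, and for CDH2 they were ST7L (0.024), ZC3H6 (0.025) and PPAN (0.028), with 4770. With 4 arrays the ranks describe flat or single-array patterns that many genes have, and nothing on shared control follows from them.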

How the data were processed

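RNA of MCF-10A cells treated with stapled-peptide (SP) or non-specific stapled-peptide (NSP) was measured on 4 single-colour Agilent arrays of 1 slide, 1 for each peptide and time. Per the file headers, the deposited spot intensities are background-subtracted signals of the authors' Feature Extraction run, version 10.7.1.1, whereas the submitters' processing notes give 9.5; they were not normalized between arrays. The other deposited columns used, under the heading other than signal, are 0 or 1 marks per spot. The series' combined table, with column medians of 32.4, 31.9, 24.5 and 27.6, equalled the log mean of a probe's unmarked spots within 0.1% for 100% of probes, on a linear scale and uncentred.

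Control spots and 343 to 438 marked spots per array were left out, log2 signals of a probe's spots averaged, and arrays quantile-normalized, as the supplementary methods state. A probe counted as measured when over 0.5 of its spots were well above background (62.5 to 65.7% of spots per array). Where 1 of the arrays compared was dim, its signal was raised to that array's lowest measured signal and the difference is a bound. A gene's value is that of its brightest probe, and differences over 4-fold were counted. RefSeq accessions named 55.7% of probes. Replicate spots had a median log2 SD of 0.072, and depth is limited by the number of arrays. Python 3.11.15, numpy 2.4.6, pandas 2.3.3 and matplotlib 3.10.9 were used, and limma 3.58.1 in R 4.3.3 for normexp with an offset of 50. The steps were tested on simulated data. Changes were planted there only at probes with clear signal, and not at probes as dim as those of CDH1, DSC2 and PKP1.

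The members and lists were chosen with earlier results of these data known. Named were all members, the list genes over 4-fold at 48 h, the pair of each list nearest to that limit on its inner side, and marker genes. Tried as alternatives were no normalization, normexp, 75th-percentile scaling, no bound, only probes measured on both arrays, marked spots kept, the combined table, averaging a gene's probes, and limits of 2-fold, 10-fold and 100-fold. Normalization without the 48 h NSP array was chosen after seeing the data. The probe grid was built on hg19, so probe positions are not printed, and the promoter windows shown are on GRCh38.p14.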

Additional observations from a re-analysis of the deposited data

Results flagged for a closer look

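Genes whose difference between the peptides had one sign at 24 h and the other at 48 h, with both sizes above the median SD between spots of 0.072, were singled out. There were 7 of these, and with 1 array per condition the change of sign was not tested. The share of all genes that meet this rule was not counted, so the 7 are not read as a result about these genes. The limit of 0.072 is a spread within arrays, and the CDH1 spots had larger SDs, of 0.15 to 0.29.

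CDH3 had 0.12 at 24 h and −3.94 at 48 h, and DSG3 had 0.15 and a bound of −3.33. DSC2 had bounds of −0.56 and 1.79. For the other genes both values were small: CDH1 had 0.34 and −0.31, CDH2 −0.074 and 0.23, DSG2 −0.12 and 0.28, and DSP 0.088 and −0.10. The other probe of CDH2 had 0.099 and 0.61, with no change of sign, and DSP at 48 h had 0.074 without normalization.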

How the results depend on the processing

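No paired analysis was possible because the groups compared, 1 peptide at 1 time each, hold 1 array each and no value comes from a test. Pairing the peptides over both times was not run, and there was no replicate to leave out. The 2 genes lower by more than 4-fold at 48 h, CDH3 and DSG3, became 1 with normexp, 1 with only probes measured on both arrays, which removes DSG3, and 0 at 100-fold. The 0 higher genes became 1 without normalization and 1 at 2-fold, DSC2 in both. The 2 genes over 4-fold between the times with NSP became 1 with normexp, 1 with probes measured on both arrays, 4 at 2-fold and 0 at 100-fold. The median at 24 h, −0.013, turned to 0.033 with normexp, 0.038 with only probes measured on both arrays and 0.012 when the probes of a gene were averaged. The counts of 0 at 24 h and between the times with SP stayed at 0 in the alternatives tried. The median difference at 48 h, −0.32, was −0.0097 without normalization and −0.19 with normexp. The cause was not tested in the cases of normexp and of no normalization.

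Over the alternatives, CDH3 at 48 h ranged from −4.18 to −2.29 and DSG3 from −4.26 to −1.25, and no value over 4-fold changed sign. DSC2 at 48 h ranged from 0.52 to 2.13. Single values moved by more than the SD between spots in 23 of 37 cases without normalization, 19 of 38 with normexp and 17 of 38 with scaling to the 75th percentile. The combined table holds the same values and tested nothing further. Dim probes, among them those of CDH1, DSC2 and PKP1, are limited by signal over background.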

Other observations

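Probes of 1 gene parted in several junction genes, all values being differences of log2 signals at 48 h. NECTIN2, which encodes a nectin of adherens junctions, had 1.498 at the probe on NM_001042724 and −0.97 at that on NM_002856. For DST the probes on NM_001723 had −4.00 and −3.02 and that on NM_015548 had −2.13. CDH13 had a bound of −6.71 on NM_001257 and −0.92 on NM_001220491. PKP4, which encodes a plakophilin relative found at several junctions, had 1.06 on NM_001005476 and 1.71 and 1.99 on NM_003628. PLEC had −6.40 and −2.70 on NM_201380. At 24 h the same probes of NECTIN2 differed by 0.01 and −0.03. These genes were chosen for this description after their values were seen.

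Mesenchymal and luminal markers had lower summed signals on the NSP array at 48 h. Of 8 mesenchymal genes the summed signal was 112764 to 118210 on the other 3 arrays and 16249 on that array. VIM, which encodes vimentin, had 16.28, 16.20, 16.32 and 13.97, and DCN, which encodes decorin, had 14.84, 14.96, 14.88 and 5.73. Of 6 mesenchymal genes with a difference between the peptides at 48 h, 4 were lower and 2 higher with NSP. The higher ones were COL1A1, by 0.13, and LUM, by a bound of 0.19. COL1A2 was not measured on any array. Of 7 luminal markers, all were measured on the 4 arrays. Their summed signals were 30611 to 32326 on the other 3 and 6642 on that array. Between the peptides at 48 h, however, 4 luminal genes were lower and 3 higher with NSP, and the median difference was −0.15. KRT18 and KRT8 had −2.34 and −2.79, whereas FOXA1, KRT19 and EPCAM had 1.31, 0.94 and 0.88. EPCAM, an epithelial adhesion molecule, had signals of 4.86, 5.44, 5.58 and 6.46. Among 4 endothelial markers 3 to 4 were measured on the other arrays and 1 on that array, and of 4 leukocyte markers 3 were measured on each array.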
